A study of Mus musculus with 10 samples.

Results

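Narrow RBPJ peaks at the promoters of single genes were examined in mouse brain pericytes. These are intervals of under 500 bp whose centre lay within 1 kb of a start site of transcription (TSS) belonging to a protein-coding transcript, with no TSS of another protein-coding gene within that distance. They numbered 1185 of the 11094 intervals in the peak list. The members were therefore chosen by their width and position, and both are given below as a description. Another 3636 single-gene promoter peaks were 500 bp or wider and are called wider promoter peaks here, 668 promoter peaks (123 of them under 500 bp) had TSSs of 2 or more genes near them, and 2714 peaks under 500 bp had no such TSS within 1 kb and are called narrow distal peaks.

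RBPJ had been mapped by ChIP-seq (sequencing of DNA recovered with an antibody) in RD1 cells, a mouse culture labelled as brain pericytes, to find the sites it binds. The cells carried no treatment or genetic change in the labels and were grown on collagen I in pericyte medium, and the precipitation used an antibody against RBPJ (Cell Signaling). Per the paper's methods, its primary brain pericytes came from mice several weeks old and were used after many passages. Those mice were homozygous for a floxed Rbpj allele (flanked by target sites of Cre), a genotype that the labels do not give. The 2 RBPJ samples carried the same list of intervals, which the authors had built from both replicates, so no spread between replicates could be computed and every p-value below compares peaks or sites within 1 list. The list held neither scores nor read counts, the depth behind a peak was unknown, and the labelled cell type could not be checked against marker genes in a list of positions.

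RBPJ is the DNA-binding protein of the Notch pathway. Without a signal it sits with corepressors at its targets, and when the cleaved intracellular part of a Notch receptor enters the nucleus it forms an activating complex with RBPJ and a Mastermind coactivator. RBPJ reads a short sequence, most often written GTGGGAA with the core TGGGAA, and a pair of such sites facing each other can bring a pair of Notch complexes together. Most mammalian promoters lie in CpG islands, stretches rich in G, C and the dinucleotide CG, where factors of the ETS, SP/KLF, NRF1 and NFY families bind close to the TSS.

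The sites nearest to the centres of narrow promoter peaks are shown first because they are the letters behind the counts that follow. Each is 30 bases of the mouse genome (RefSeq GRCm38.p6), read 5′ to 3′ in the direction of the site, and capitals mark the GTGGGAA motif. These 10 had the motif nearest to the peak centre. At the largest distance shown, 6 bp, 5 members tied, and Rpl36a and Mtss1l among them are left out by their order in the genome.
Def8, chr8:123443082-123443111, plus strand: gggggggtctgGTGGGAAagcaggcgaggg
Rpp14, chr14:8080392-8080421, plus strand: tgggctgctgcGTGGGAActccgacccatg
Swi5, chr2:32282948-32282977, plus strand: atggtgagagtGTGGGAAagctggcagact
Gm11627, chr11:102578860-102578889, minus strand: ccctcggcacgGTGGGAActtcgcaggcct
Snd1, chr6:28480119-28480148, minus strand: cgggaggtgtaGTGGGAAggaaaggacacg
Stk38, chr17:28982736-28982765, plus strand: ggaagaggactGTGGGAAgctaggcggcag
Mrpl35, chr6:71823646-71823675, minus strand: cgcgggagggaGTGGGAAtttagtttggat
Wt1, chr2:105130650-105130679, plus strand: ccagatcaaccGTGGGAAagtggctacctt
Zcchc8, chr5:123720928-123720957, plus strand: catcttgggctGTGGGAAagcttggagggc
Zfp974, chr7:27929475-27929504, minus strand: cgcgcacccccGTGGGAActcccacaaacc

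The Def8 peak was 482 bp wide, had its centre 85 bp downstream of a TSS and held 1 TGGGAA core 0.5 bp from the centre. At Rpp14, which encodes a ribonuclease P subunit, the 366 bp peak was centred 37 bp downstream of the TSS with the core 2.5 bp from the centre. The Wt1 peak, at the gene of a zinc finger factor of kidney and mesothelium, was centred 213 bp upstream of an internal TSS, in an intron, with the 5′ end of the gene over 1 kb away. Swi5, Snd1, Stk38, Mrpl35 and Def8 also had their member at such an internal TSS.

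Notch1, the gene of a Notch receptor, held the member with the closest link to the pathway, and its site was added to those shown after its values were seen. Its peak at chr2:26516453-26516622 was 170 bp wide, was centred 126 bp downstream of the TSS at an intronic base, and held 1 TGGGAA core 6.5 bp from the centre, within GTGGGAA. A wider promoter peak was also assigned to Notch1.
Notch1, chr2:26516516-26516545, plus strand: agtccgacagcGTGGGAAatactcacagtg

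Facing pairs of cores were rare. The core was searched here as TGGGAA or TGAGAA followed, after a gap, by the reverse complement of either. Over gaps of 11 to 21 bp, 9 pairs were found in the members, of which 3 had a gap of 14 bp and 1 a gap of 15 bp. These 4 are shown with the cores of the pair in capitals, since gaps of 14 to 17 bp were those chosen for paired sites.
Zfp287, chr11:62731935-62731964, plus strand: aaTGGGAAgccgaacccgagccTTCCCAtc
Ehd3, chr17:73804682-73804711, plus strand: cTGGGAAagaaatgcctgcgctTTCCCAca
Ms4a10, chr19:10974186-10974215, plus strand: taTGGGAAaaagagggtggaatTTCCCAag
Mid2, chrX:140665653-140665682, plus strand: tcTGGGAAagggcgcagccgccTTCCCAcg

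The pairs of Zfp287 and Ehd3 lay upstream of the TSS, in peaks centred 28 bp and 127 bp upstream, and those of Ms4a10 and Mid2 lay in peaks centred 407 bp and 597 bp downstream. One whole member shows how sites can crowd in a short peak, at Stk38, the gene of a serine/threonine kinase. It is printed on the strand of the gene, with all 3 TGGGAA cores in capitals in either direction.
Stk38, chr17:28982647-28982844, minus strand: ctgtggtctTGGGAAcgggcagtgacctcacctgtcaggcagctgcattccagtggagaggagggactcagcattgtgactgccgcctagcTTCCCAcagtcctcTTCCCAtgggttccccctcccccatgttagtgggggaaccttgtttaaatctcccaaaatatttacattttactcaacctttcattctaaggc

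The members were small intervals placed tightly on the TSS. Their widths ran from 135 to 499 bp with a median of 360 bp (quartiles 280 and 428 bp), against a median of 1038 bp for wider promoter peaks. Their centres lay at a median of 11 bp upstream of the nearest TSS (quartiles 77 bp upstream and 58 bp downstream), and 768 of them (64.8%) were within 100 bp of it, against 1187 (32.6%) of the wider promoter peaks. The median distance without regard to side was 69 bp for members and 181 bp for wider promoter peaks. They belonged to 1180 genes, of which Actn4, Arhgap23, Atat1, Atf7ip and Lmna had 2 members each, and 47 of the genes had a wider promoter peak as well.

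The narrowest were at Rex1bd (135 bp), Lmna (149 bp), Gadd45gip1 (150 bp), Wwc1, Synj2 and Ticam1 (151 bp each), and of these 6 the Synj2 and Ticam1 peaks held a TGGGAA core, 1 each. Just inside the width limit 6 members were 499 bp wide, at Rnft1, Ube2z, Ablim1, Cyth3, Luc7l2 and Ints10, of which Rnft1 held 1 core, Ablim1 held 2 and the others none. Just outside it were Nop58 at 500 bp and 6 peaks at 501 bp, Cep112 and Foxn3 among them. Starts were read as 1-based, and if they were 0-based every width would be 1 bp less and Nop58 would fall inside the limit. Just inside the distance limit were Olfr1253 at 991 bp, Ascl4 at 989 bp and 4930503E14Rik at 887 bp, and just outside it narrow peaks near Trrap at 1007 bp, Creb3l1 at 1019 bp and Pcnx at 1034 bp. The edges of the rule thus cut through a continuous range of widths, while few peaks lay near the distance limit.

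**Figure D1:**
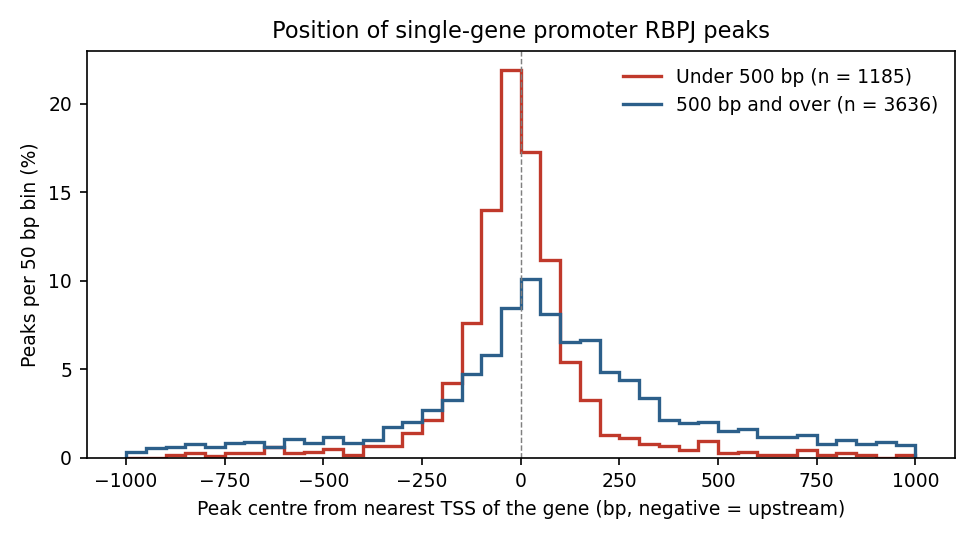
Percentage of peaks per 50 bp bin (vertical axis) against the position of the peak centre from the nearest TSS of its gene in bp (horizontal axis, negative upstream, dashed line at the TSS), for the 1185 narrow and 3636 wider single-gene promoter peaks. The narrow peaks, of which 64.8% lie within 100 bp of the TSS, form a tight peak around it, and the wider ones spread further downstream.

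The centre lay downstream of the TSS in 520 of 1185 members (43.9%, exact 95% interval 41.0 to 46.8) and in 2207 of 3636 wider promoter peaks (60.7%, 59.1 to 62.3). Position was part of the choice of members, so these shares are a description. Median width differed between these classes by the rule itself (360 and 1038 bp), and its part in this difference was not tested. By the annotation, 416 members (35.1%) had their centre outside genes, 456 (38.5%) in an untranslated region, 215 (18.1%) in an intron and 98 (8.27%) in a coding exon. Wider promoter peaks were in introns in 32.9% and outside genes in 24.3%. The 5′ end of the whole gene was within 1 kb of the centre for 990 members (83.5%) and for 85.0% of wider promoter peaks.

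The median gap from a member to the next RBPJ peak was 36565 bp (quartiles 14766 and 88472 bp), against 38007 bp for wider promoter peaks and 33297 bp for all peaks, and 217 members (18.3%) had another peak within 10 kb, as had 15.5% and 20.5% of these. The authors had merged nearby peaks, so short gaps were removed beforehand, and the smallest gap of a member was 1987 bp. On chromosomes 4 and 7 there were 1.21 and 1.33 members per 100 protein-coding genes, on X 2.22 and on Y 0, while the other chromosomes had between 3.89 and 8.94. The whole list was short on the same chromosomes, with 11.9 peaks of any kind per 100 genes on 4, 7.22 on 7, 15.2 on X and 1.64 on Y, and between 48.0 and 78.7 on the others. Leaving out chromosomes 4, 7, X and Y changed the main motif difference below from 12.5 to 10.9 percentage points.

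The RBPJ core was more frequent at the centre of narrow promoter peaks than at that of wider ones. TGGGAA on either strand was present in the central 200 bp of 303 of 1185 members (25.6%, exact 95% interval 23.1 to 28.2) and of 476 of 3636 wider promoter peaks (13.1%, 12 to 14.2). The gap of 12.5 percentage points passed the two-sided Fisher's exact test (p = 2.14e-22, Benjamini-Hochberg adjusted over the 12 main tests p = 8.56e-22). Equal windows were needed here, since over whole peaks the order turned to -29.8 points, the wider intervals holding more bases. Width defined the classes, and the middle of a wide or merged interval need not be where its signal was highest. No summits were listed, so the part of this in the difference was not tested. The same limit holds for the hexamers and other cores compared below. Among the peaks of 500 bp to under 1 kb the share was 13.9%, and among those of 1 kb and over 12.4%. All intervals of this kind cover counting error only.

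Compared with other sequence, members stood between narrow distal peaks and plain promoters. Narrow distal peaks held the core in 1323 of 2714 central windows (48.7%, 46.9 to 50.6), a difference of members from them of -23.2 points (Fisher's exact test, p = 6.59e-43, adjusted p = 7.91e-42). Protein-coding gene starts without a peak held it in 2653 of 15970 windows of the same length (16.6%, 16.0 to 17.2), and members exceeded them by 8.96 points (Fisher's exact test, p = 6.48e-14, adjusted p = 1.56e-13), and all 21938 gene starts held it in 16.2%. Windows 1 kb upstream of the member centres held it in 16.8% and windows 1 kb downstream in 18.8%. In the paired comparison 247 members had the core only in the peak and 143 only upstream (two-sided exact McNemar test, p = 1.56e-07, adjusted p = 3.12e-07), and 252 only in the peak and 172 only downstream (p = 1.20e-04, adjusted p = 1.59e-04).

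The result depended on where the window was placed. When it was centred on the nearest TSS in place of the peak centre, the difference from wider promoter peaks was 3.50 points (Fisher's exact test, p = 0.00406) and that from gene starts without a peak was 0.856 points (p = 0.443). This setting was chosen after the data had been seen. The surplus over gene starts thus passed the threshold around the centres of the peaks and did not pass it around the TSS.

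The longer motif GTGGGAA was present in the central 200 bp of 10.2% of members, 4.15% of wider promoter peaks, 19.9% of narrow distal peaks and 3.72% of all gene starts. Of the TGGGAA sites in members, 35.0% had G as the preceding base, against 30.1% in wider promoter peaks (two-sided Fisher's exact test, p = 0.145) and 34.0% in narrow distal peaks.

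Cores were denser in the middle of members than at their sides. There were 1.69 TGGGAA sites per kb within 25 bp of the centre, 1.38 between 50 and 100 bp, 0.907 between 100 and 200 bp and 0.813 between 200 and 500 bp. Around wider promoter peaks the density was 0.704 per kb within 25 bp and 0.967 between 200 and 500 bp, so it was lower at the centre than outside. Around narrow distal peaks it was 4.58 per kb within 25 bp and 1.02 between 200 and 500 bp. Between 500 and 1000 bp the density was 1.01 per kb around members and 1.04 around both wider promoter and narrow distal peaks. Within the central 200 bp of members, 100 of 363 sites (27.5%, 23 to 32.5) lay within 25 bp of the centre, where an even spread gives 25% (two-sided exact binomial test, p = 0.275, adjusted p = 0.300). For GTGGGAA the share was 41.7% (53 of 127, exact binomial test, p = 5.78e-05), and for TGGGAA in members under 300 bp it was 34.8% (p = 0.0103). Sites on the strand of the gene made up 176 of 363 (48.5%, 43.2 to 53.8; two-sided exact binomial test, p = 0.60), so no preferred orientation was detectable.

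**Figure D2:**
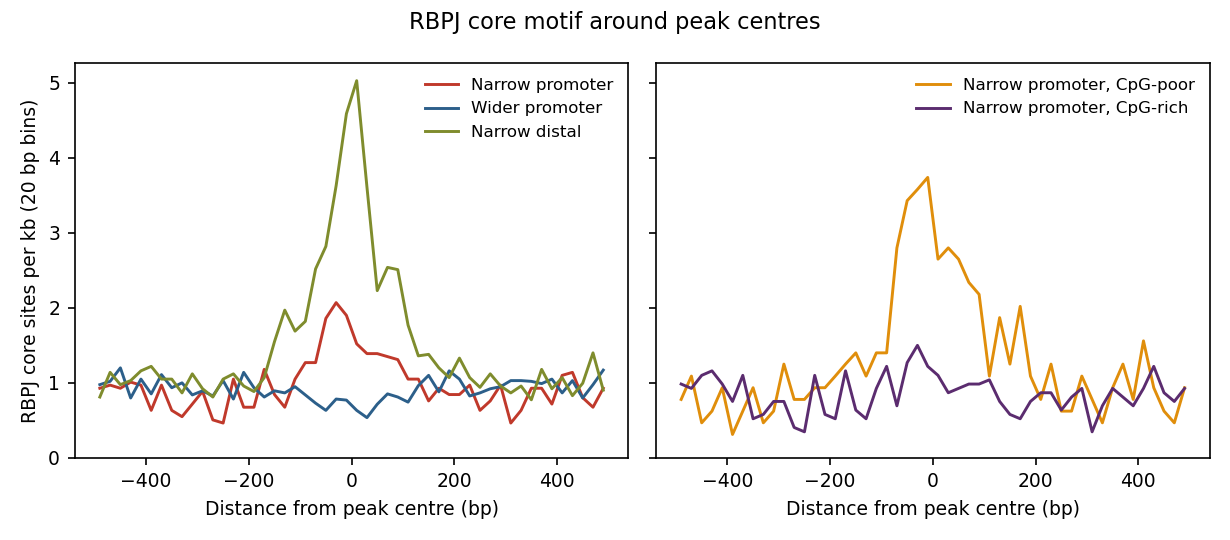
RBPJ core (TGGGAA, either strand) sites per kb in 20 bp bins (vertical axis) against distance from the peak centre in bp (horizontal axis), left for narrow promoter, wider promoter and narrow distal peaks, right for CpG-poor and CpG-rich narrow promoter peaks. Narrow promoter peaks rise to a low maximum at the centre (1.69 per kb within 25 bp), narrow distal peaks to a high one (4.58) and wider promoter peaks have none, and most of the rise in narrow promoter peaks is in the CpG-poor ones (3.18 against 1.13).

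Over whole peaks, 420 members (35.4%) held at least 1 core, 319 of them 1, 86 of them 2 and 15 of them 3 or more, and 765 held none. The 537 cores lay at a median of 57.5 bp upstream of the TSS, and 334 of them (62.2%) were upstream, where 52.3% of the bases of the members were. This came to 1.53 cores per kb upstream and 1.02 per kb downstream. The most cores, 4, were in the 362 bp peak 88 bp upstream of Atp5mpl, which encodes a small protein of the mitochondrial ATP synthase. Another 14 held 3, and the 9 of these with a core nearest to the peak centre were at Rpl23a (large ribosomal subunit), Irf9 (the DNA-binding part of the type I interferon response complex), Klf13 (a zinc finger factor of the SP/KLF family), Tjp3 (a tight junction scaffold), Mid2, Smim1, Gpkow, Stk38 and Zfp398. The core nearest to the peak centre was 5.5 bp away at Rpl23a, 26.5 bp at Irf9, 31.5 bp at Klf13 and 12.5 bp at Tjp3.

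Most members were CpG-rich, and the share with the core was higher in those that were not. A window was called CpG-rich where the central 200 bp had at least 55% G and C and an observed over expected CpG ratio of at least 0.65. This held for 864 of 1185 members (72.9%, 70.3 to 75.4) and 65.2% of wider promoter peaks (difference 7.73 points, Fisher's exact test, p = 7.33e-07, adjusted p = 1.10e-06). The direction depended on the widest intervals. Against peaks of 500 bp to under 1 kb, of which 80.1% were CpG-rich, members were different by -7.16 points (Fisher's exact test, p = 8.22e-06), while only 51.9% of peaks of 1 kb and over were CpG-rich, and with a TSS limit of 500 bp the difference was 1.06 points (p = 0.505). Of gene starts without a peak 30.4% were CpG-rich, and of narrow distal peaks 3.83%.

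Among the 321 CpG-poor members 146 held the core (45.5%, 39.9 to 51.1), and among the 864 CpG-rich members 157 did (18.2%, 15.7 to 20.9), 27.3 points apart (Fisher's exact test, two-sided, p = 2.11e-20, adjusted p = 6.32e-20). For GTGGGAA the gap was smaller, 45 of 321 (14%) against 76 of 864 (8.80%), or 5.22 points (Fisher's exact test, p = 0.0126), and for TGGGAA in the central 100 bp it was 16.7 points (p = 8.53e-12). Members exceeded wider promoter peaks in both classes. In CpG-poor windows the shares were 45.5% and 19.7% (two-sided Fisher's exact test, p = 9.07e-20, adjusted over the 6 tests by class p = 2.72e-19), and in CpG-rich windows 18.2% and 9.58% (p = 1.19e-10, adjusted p = 1.79e-10). They exceeded gene starts without a peak by 25.7 points in CpG-poor windows (19.8% there, Fisher's exact test, adjusted p = 1.13e-23) and by 8.87 points in CpG-rich windows (9.30% there, adjusted p = 6.86e-13). The gap to narrow distal peaks was -15.5 points in CpG-rich windows (35 of 104 distal peaks, 33.7%; adjusted p = 4.73e-04) and -3.87 points in CpG-poor windows (49.3% of 2610 distal peaks; two-sided Fisher's exact test, p = 0.194). The split by CpG class was added after the data had been seen for these comparisons.

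**Figure D3:**
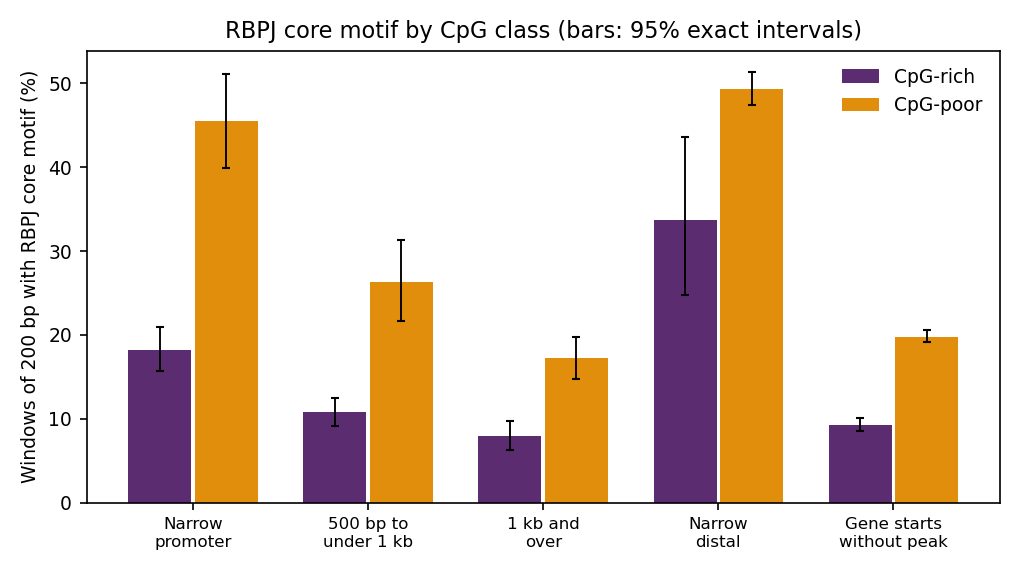
Percentage of central 200 bp windows with the RBPJ core (vertical axis, from 0; error bars are exact 95% intervals) for CpG-rich and CpG-poor windows of narrow promoter peaks, single-gene promoter peaks of 500 bp to under 1 kb and of 1 kb and over, narrow distal peaks and protein-coding gene starts without a peak. CpG-poor narrow promoter peaks (45.5%) stand close to CpG-poor narrow distal peaks (49.3%), and CpG-rich narrow promoter peaks (18.2%) lie above the other CpG-rich promoters.

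The share with the core varied with position, without a test. Upstream of the TSS it was 24.9% of 426 members centred within 100 bp, 29.3% of 140 from there to 200 bp, 30.3% of 66 from 200 to 500 bp and 50.0% of 26 from 500 bp to 1 kb. Downstream it was 19.2% of 338 members centred from 0 to under 100 bp, 18.4% of 103 from 100 to under 200 bp, 42.6% of 61 from 200 to under 500 bp and 52.0% of 25 beyond that. CpG-rich windows were 82.0% of the members from 0 to under 100 bp downstream and 42.3% of those 500 bp to 1 kb upstream, so the CpG class moved with position. At an internal TSS, over 1 kb from the 5′ end of the gene, 35.4% of 195 members held the core, and within 1 kb of that end 23.6% of 990, and CpG-rich windows were 48.7% and 77.7% of these. By width the share was 29.5% under 200 bp, 30.8% from 200 to under 300 bp, 27.0% from 300 to under 400 bp, and 85 of 426 members above that held it. Whether position, CpG class or width carried these differences was not tested. The central window was mostly masked as repeat in 4 members (0.338%) and in 2.37% of wider promoter peaks (difference -2.03 points, Fisher's exact test, p = 3.91e-07, adjusted p = 6.70e-07), but the difference was -0.245 points against peaks of 500 bp to under 1 kb (p = 0.423).

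The core also led a search without a chosen motif. Of all hexamers, each counted together with its reverse complement by presence in the central 200 bp, 83 were more frequent in members than in wider promoter peaks (3.99% of those tested) and 60 less frequent (2.88%) at an adjusted p under 0.05 by Fisher's exact test. TGGGAA had the smallest p in these exact tests (25.6% and 13.1%, adjusted p = 4.45e-19). The next by the exact test were CCGGAA, the ETS core (23.5% and 13.7%, adjusted p = 1.53e-11), GTGGGA, which overlaps the RBPJ motif (24.6% and 15.4%, adjusted p = 1.21e-09), and CGGAAG and ACTTCC, which overlap ETS sites. Among those less frequent, TAAAAA (2.53% and 6.77%), TTAAAA (3.29% and 7.34%) and AAAAAA (3.97% and 7.84%) are rich in A and T, and CCCCCC (10.5% and 17.2%) is a run of C. In CpG-rich windows alone TGGGAA ranked 2 by p, and in CpG-poor windows 1.

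Cores of 14 other promoter factors were counted in the same windows on both strands, and 8 differed between members and wider promoter peaks at an adjusted p under 0.05. The ETS core CCGGAA, read by a large family of winged helix factors, was in 23.5% of members, 13.7% of wider promoter peaks and 3283 of all 21938 gene starts (Fisher's exact test adjusted over the 14, p = 2.05e-13). NRF1, a factor of nuclear genes for mitochondria, reads TGCGCA, which was in 11.6%, 6.41% and 7.58% of these classes (exact test, adjusted p = 1.27e-07). The GC box GGGCGG of SP and KLF factors was in 59.8%, 50.6% and 40.0% (exact test, adjusted p = 1.47e-07). The cyclic AMP response half-site TGACG was in 23.4% against 18.4% (exact test, adjusted p = 8.55e-04), the E-box CACGTG in 7.17% against 4.59% (adjusted p = 0.00209), the YY1 core ATGGCG in 15.9% against 12.1% (adjusted p = 0.00209) and the NFY box CCAAT in 20.5% against 17.5% (adjusted p = 0.0379). CCAAT was in 28.1% of all gene starts, more than in either peak class.

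The TATA box TATAAA was less frequent in members, in 1.69% against 3.05% of wider promoter peaks (Fisher's exact test adjusted over the 14, p = 0.0262) and 8.05% of all gene starts. Within the CpG classes it did not pass, at 1.04% against 1.01% in CpG-rich windows and 3.43% against 6.87% in CpG-poor ones. Of all gene starts 42.8% were CpG-rich, against 72.9% of members. The remaining 6 cores did not pass. The AP-1 site TGANTCA was in 3.54% and 2.83% of members and wider promoter peaks, the TEAD core GGAATG in 7.43% and 7.12%, the RUNX core TGTGGT in 6.41% and 6.71%, the RFX half-site GTTGCC in 8.78% and 7.59%, and the BANP site CTCGCGAG in 0.844% and 0.853%. The HES/HEY site CACGCG, bound by the repressors that Notch signalling induces, was in 13.7% and 13.9%, against 9.68% of all gene starts.

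Within CpG-rich windows 5 of the 14 passed, namely ETS (28.0% and 16.7%, exact test, adjusted p = 4.05e-11), NRF1, NFY, the cyclic AMP response half-site and the E-box, and SP/KLF did not (67.5% and 65.7%, adjusted p = 0.529). Within CpG-poor windows SP/KLF (39.3% and 22.3%, exact test, adjusted p = 2.96e-08) and AP-1 (8.41% and 4.19%, adjusted p = 0.0269) passed. YY1 and the TATA box passed in neither class. Members with an RBPJ core held an ETS core in 56 of 303 windows (18.5%) and those without it in 223 of 882 (25.3%; Fisher's exact test, p = 0.0184), and in CpG-rich members alone the shares were 25.5% and 28.6% (p = 0.492). Neither core was in 659 members (55.6%), and 59 (4.98%) held none of the 15 cores. Of the GTGGGAA sites in the central 200 bp, 41.7% (exact 95% interval 33.0 to 50.8) lay within 25 bp of the centre, against 25.6% for ETS (21.3 to 30.2) and 25.6% for SP/KLF (23.3 to 28.0). The intervals of NRF1 (31.5%, 24.5 to 39.2), TEAD (30.3%, 21.5 to 40.4), the E-box (29.8%, 20.8 to 40.1), RFX (29.7%, 21.4 to 39.1), the TATA box (33.3%, 14.6 to 57.0), AP-1 (9 of 45 sites, 9.58 to 34.6), BANP (2 of 10 sites, 2.52 to 55.6) and HES/HEY (26.2%, 20.1 to 33.0) overlapped or met that of GTGGGAA, and no difference between motifs was tested. A match is a description of letters in a window and not a sign that the factor was bound.

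**Figure D4:**
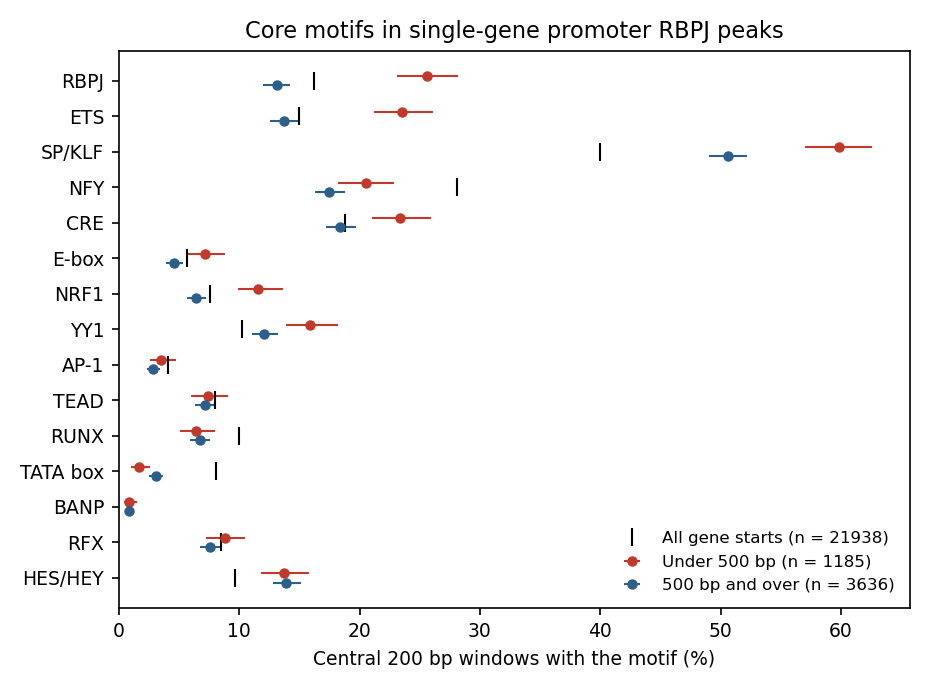
Percentage of central 200 bp windows holding each core motif (horizontal axis) for narrow and wider single-gene promoter peaks (points with exact 95% intervals) and for all protein-coding gene starts (black ticks), 1 line per factor. RBPJ (25.6% against 13.1%) and ETS (23.5% against 13.7%) show the clearest gaps between narrow and wider peaks, and the TATA box is below the level of all gene starts (8.05%) in both.

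The genes of the members were read against the share of all protein-coding genes with a narrow single-gene promoter peak, which was 5.38% (1180 of 21938), and the share with a wider one, 16.3%. Both shares include the genes of chromosomes 4, 7, X and Y, where the whole list was short. No share without these chromosomes was computed, and the lists were not split by chromosome. For narrow peaks the shares of the Notch pathway lists were under the background of 5.38%, by which lists of this size would hold few, and for wider peaks they were 40.7%, 40.9% and 35.7%. Of 27 genes for Notch receptors, ligands and the RBPJ complex 1 had a narrow peak (Notch1) and 11 a wider one, and of 22 genes for processing and trafficking of Notch 1 had a narrow peak and 9 a wider one. The narrow peak of the latter list was at Fbxw7, the ubiquitin ligase subunit that marks the Notch intracellular domain for degradation. Its 466 bp peak was centred 854 bp upstream of the TSS used, with a core 224.5 bp from the centre. Of 14 Notch target genes, the Hes, Hey and related repressors among them, none had a narrow peak and 5 had a wider one.

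The lists with a role in vessels and matrix also had narrow shares close to the background or counts too small to set apart from it. Of 32 genes of the TGF-beta and BMP pathways 2 had a narrow peak and 13 a wider one. Tgfbr2, which encodes the type II TGF-beta receptor, had a 434 bp peak centred 40 bp downstream of the TSS with no TGGGAA core, and Smad7, an inhibitor of the pathway, had a 192 bp peak centred 820 bp upstream with 1 core 71.5 bp from the centre. None of 16 matrix, adhesion and fibrosis genes taken from the study had a narrow peak and 7 had a wider one, but the study had chosen that list with its own data in view. None of 15 pericyte genes, 13 endothelial genes and 11 AP-1 genes had a narrow peak, while 1, 2 and 6 of these had a wider one. Of 13 smooth muscle contractile genes 1 had a narrow peak and 2 a wider one. The narrow peak was at Mrtfa, a coactivator of serum response factor, 395 bp wide, centred 125 bp upstream and with no core. Of 18 circadian clock genes 1 had a narrow peak and 9 a wider one. Tef, a clock output factor, had both, and its narrow peak was 426 bp wide, centred 195 bp downstream, with a core 148.5 bp from the centre. Collagen chain genes had 3 narrow peaks among 44 (Col8a2, Col12a1 and Col6a2) and 1 wider peak, and of these Col12a1 held 2 cores and Col8a2 held 1.

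Among the gene families chosen by symbol, the narrow shares ran from 0.0916% to 17.6%. Of 34 aminoacyl-tRNA synthetase genes, which charge transfer RNAs, 6 had a narrow peak (17.6%) and 26.5% a wider one, and 4 of these, Iars2, Tars2, Cars2 and Lars2, encode mitochondrial forms. Of 77 mitochondrial ribosomal protein genes 12 had a narrow peak (15.6%) and 5 a wider one (6.49%), and 23 more had a peak that they shared with a neighbouring gene. Of 104 genes of the transcription machinery 16 had a narrow peak (15.4%) and 26.9% a wider one, and those with a narrow peak included the Mediator genes Med10, Med11, Med12, Med13, Med16, Med17, Med26 and Med27. Of 81 ubiquitin-conjugating and deubiquitinase genes 11 had a narrow peak (13.6%) and 35.8% a wider one, of 82 respiratory chain and ATP synthase genes 10 (12.2%) and 13.4%, of 82 cytosolic ribosomal protein genes 8 (9.76%) and 22.0%, and of 44 DNA replication genes 4 (9.09%) and 18.2%. The cytosolic ribosomal protein genes with a narrow peak include Rpl7l1, a ribosomal protein-like gene picked by its symbol. Of 458 zinc finger genes selected by name 33 had a narrow peak (7.21%) and 23.4% a wider one, and solute carrier genes (19 of 361, 5.26%), splicing factor genes (4 of 68, 5.88%) and proteasome genes (3 of 43, 6.98%) were near the background of 5.38%. Cyclin, CDK and E2f genes had a narrow peak in 1 of 42 (Cdk7, 2.38%) and a wider one in 50.0%. Lysine methylation and demethylation genes had a narrow peak in 1 of 42 (the demethylase gene Kdm5b, 2.38%) and a wider one in 54.8%. Counts of 1 in 42 are too small to set apart from 5.38%. Of 31 genes with integrin symbols, 39 Hox genes and 1092 olfactory receptor genes 1 each had a narrow peak (Itgbl1, Hoxa7 and Olfr1253). Itgbl1 encodes an integrin beta-like protein and not an integrin subunit. No test was made on these lists, which were gathered with earlier results of these data known.

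**Figure D5:**
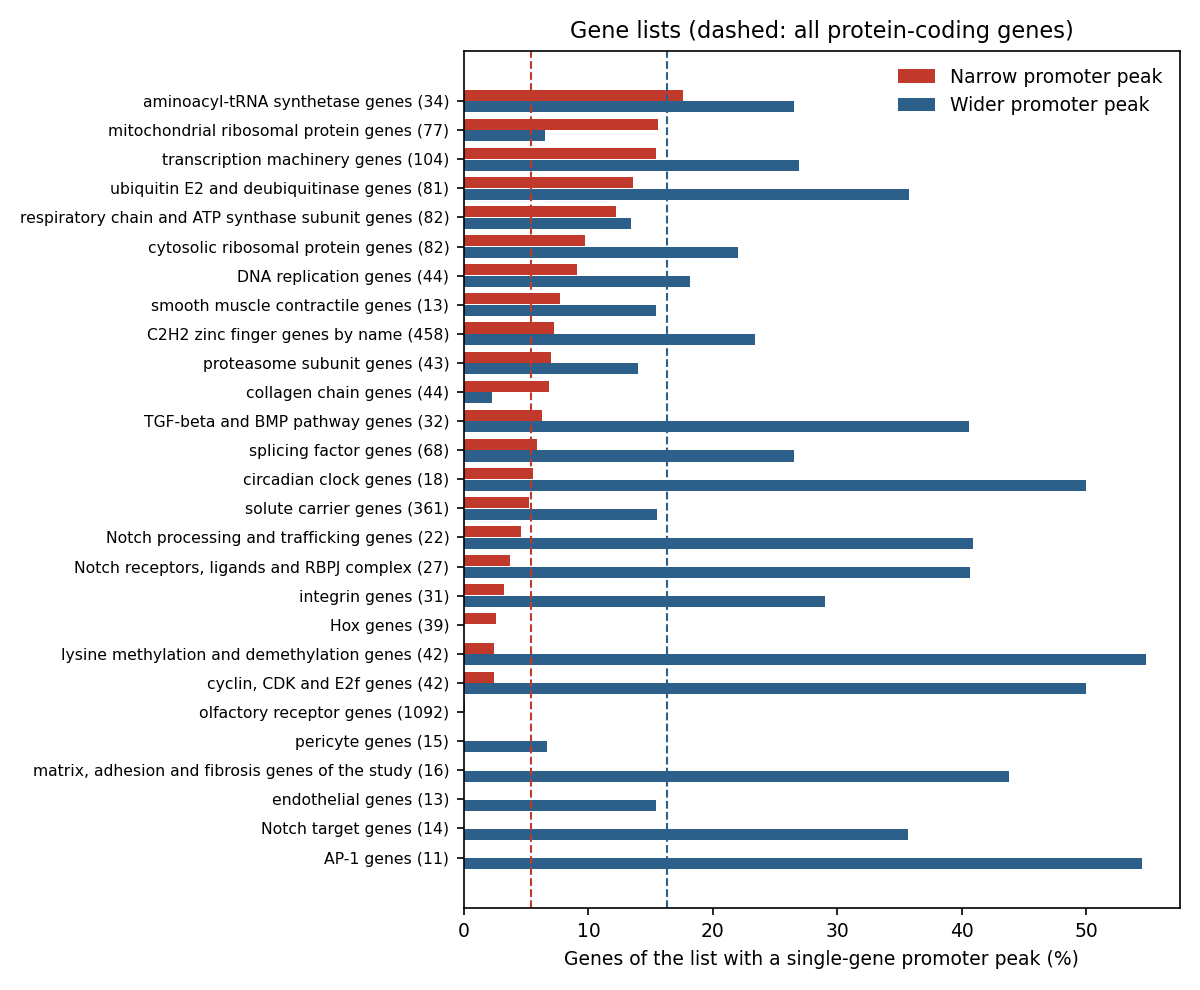
Percentage of the genes in each list (number annotated in brackets) with a narrow or a wider single-gene promoter peak (horizontal axis, from 0), with dashed lines at the shares of all protein-coding genes (5.38% narrow, 16.3% wider). Aminoacyl-tRNA synthetase, mitochondrial ribosomal protein and transcription machinery genes reach 17.6%, 15.6% and 15.4% for narrow peaks, and the Notch, TGF-beta and AP-1 lists lie between 0 and 6.25% for narrow peaks and between 35.7% and 54.5% for wider ones.

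The members of each family with the RBPJ core in the central 200 bp were counted beside the 25.6% of all members. Among zinc finger genes it was 15 of 33, among mitochondrial ribosomal protein genes 5 of 12, among respiratory chain and ATP synthase genes 4 of 10, among transcription machinery genes 6 of 16 and among cytosolic ribosomal protein genes 3 of 8, with Rpl7l1 among the 3. Among ubiquitin-conjugating and deubiquitinase genes it was 3 of 11, and among aminoacyl-tRNA synthetase genes 1 of 6. Among solute carrier genes it was 1 of 19, of which 17 were CpG-rich, and among splicing factor and proteasome genes none of 4 and none of 3. CpG-rich members were 24 of the 33 zinc finger genes and 14 of the 16 transcription machinery genes. These counts are small, and no difference between families was tested.

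In the families, the distance of the core from the centre varied among the members named, most of them chosen for a core near it. Zfp974 had a 247 bp peak centred 54 bp upstream of the TSS with GTGGGAA 6 bp from the centre, and Zfp65 a 206 bp peak centred 21 bp upstream with GTGGGAA 8 bp away. Zfp637 had 2 cores in a 397 bp peak centred 20 bp upstream, the nearer 11.5 bp from the centre. Among genes with ribosomal protein symbols, Rpl36a had a 211 bp peak centred 25 bp upstream of the TSS with GTGGGAA 6 bp from the centre. Rpl7l1, a ribosomal protein-like gene, had 2 cores in a 398 bp peak centred 107 bp upstream, the nearer 4.5 bp away. Rpl37a had its only core 152.5 bp from the centre of a 402 bp peak, and Rpl8 had a 188 bp peak centred 50 bp upstream with no core.

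For mitochondria, Mrpl24 had 2 cores in a 333 bp peak centred 8 bp upstream, and the peak of Mrps35 was 193 bp wide, lay exactly on the TSS and had a core 39.5 bp from its centre. Uqcrc2, a subunit of complex III, had GTGGGAA 15 bp from the centre of a 451 bp peak centred 20 bp downstream, Ndufab1, the mitochondrial acyl carrier protein, 36 bp from that of a 401 bp peak, and Atp5k, a subunit of the ATP synthase, 38 bp from that of a 399 bp peak. Tars2, the mitochondrial threonyl-tRNA synthetase, had 2 cores in a 386 bp peak centred 2 bp upstream of a TSS. Among genes of the ubiquitin system, Ube2d1 had 2 cores in a 310 bp peak centred 46 bp upstream, the nearer 5.5 bp from the centre, and Usp31 had GTGGGAA 22 bp from the centre of a 338 bp peak. Cores further out were those of Usp33 (110.5 bp from the centre), the proteasome genes Psmb3 (121.5 bp) and Psma1 (181.5 bp), the splicing factor gene Prpf19 (160.5 bp), the isoleucyl-tRNA synthetase gene Iars (187.5 bp) and Slc35c1 (103.5 bp).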

How the data were processed

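The 10 samples (RBPJ, H3, H3K4me1, H3K4me3 and input, 2 each) were grouped by their labels, and the 8 that are not RBPJ were not analysed here. Per the study's methods, the authors used Bowtie for alignment (GRCm38), Picard and SAMtools to remove duplicates, and MACS2 and PeakRanger to call peaks in each replicate. Nearby peaks were merged, intervals supported by several of these calls were kept, and blacklisted regions were removed. The width of an interval therefore depends on the merging as well as on the signal. The deposited list gives start and end positions alone, with no score, and depth is unknown.

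Starts were read as 1-based and width as end minus start plus 1. Centres were assigned to 54327 protein-coding TSSs (21938 genes, GENCODE M21), and sequence was read from GRCm38.p6. The nearest TSS of the gene gave position and direction, and the untranslated, coding, intron or outside class was that of the base at the centre. A gene start without a peak was the 5′ end of a gene with no peak overlapping the 1 kb to either side (15970 genes). Alternatives changed the TSS limit or set, width, window, motif, CpG limits and comparison peaks. Motifs were counted by presence on either strand in the central 200 bp. The main tests were two-sided Fisher's exact, exact McNemar and exact binomial tests, with Benjamini-Hochberg adjustment over 12, of which the 2 on centre position are given without p since the choice of members used position (14 for the other cores, 6 by CpG class, and all hexamers), in Python 3.11.15 with scipy 1.17.1, and intervals are exact Clopper-Pearson 95% intervals. Peaks are not replicates, and these p-values carry no spread between samples. The steps were tested on simulated sequences. The members and gene lists were chosen with earlier results of these data known. Members were named by rule: genes of the short lists, the 10 with most cores, the 10 with GTGGGAA nearest to the centre, facing pairs, the 5 narrowest, those at the limits and up to 4 per gene family; the other genes named from the families and members tied with named ones were added after their values were seen.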

Additional observations from a re-analysis of the deposited data

How the results depend on the processing

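Of 79 alternative values, 61 kept their direction, their side of the threshold and, for counts, stayed within 1.5 times. The surplus of TGGGAA over wider promoter peaks did so in 12 of 13 alternatives, and reversed over whole peaks (-29.8 points), where wider intervals hold more bases. Against narrow distal peaks it was -3.87 points in CpG-poor windows (exact p = 0.194), and against gene starts without a peak 0.856 points with the window centred on the nearest TSS (p = 0.443). The CpG-rich difference was 1.06 points with a TSS limit of 500 bp, 5.04 with a width under 300 bp (exact p = 0.0567) and -7.16 against wider peaks under 1 kb only. The difference in nearness to the gene's 5′ end was 2.30 points with the 500 bp limit and -5.67 under 1 kb only, and the repeat difference was -0.245 there. Hexamers called fell to 72 (500 bp limit), 78 (under 1 kb only) and 71 (CpG-rich windows), and other cores to 5 in CpG-rich and 2 in CpG-poor windows. The share of sites near the centre rose to 34.8% (width under 300 bp) and 41.7% (GTGGGAA), and the share on the gene's strand was 50.7% with a width under 300 bp (exact p = 0.932), which left 366 members. The causes were not tested. The CpG-class, TSS-centred and repeat-masked settings were chosen after seeing the data. Without either RBPJ replicate the count was 1185 by construction, since both carried the same list. No paired analysis was possible because no result compared samples between groups (the McNemar tests pair windows around 1 peak). Ranking by peak score was left out, as no score is listed, and without depth or replicates no level of binding could be compared.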
